A study of Rattus norvegicus with 18 samples.

Results

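The genes described here are 4 interferon-inducible GTPases of the rat, Gbp2, Gbp5, Igtp and Irgm. They were picked by name, with their response to procainamide in these arrays known, from 15443 named genes with a probe, of which 13652 were tested. They carried 6 of the 30367 probes on the array: 1 each for Gbp2 and Irgm, and 2 each for Gbp5 and Igtp. All 6 probes were well above background in the sample dye on all 18 arrays. Blood RNA was measured in male Brown Norway rats (BN, an inbred strain) and male rats of the outbred Sprague Dawley stock (SD). There were 4 BN procainamide arrays, 4 BN control arrays, 5 SD procainamide arrays and 5 SD control arrays. Treated rats received procainamide, an antiarrhythmic drug known for lupus-like autoimmunity, at 40 mg/kg, and controls received sterile water. Blood was taken from the venous sinus of the eye when treatment ended; its length and the ages of the rats are not given in the sources used here. Each array carried the sample in the dye Cy5 and, by the labels, RNA of control replicate 1 of the same strain in the dye Cy3. If that label holds, a log2 ratio of Cy5 over Cy3 above 0 means more signal in the sample than in that control.

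Guanylate-binding proteins, the family of Gbp2 and Gbp5, and immunity-related GTPases, the family of Igtp and Irgm, are made in many cells when interferon gamma reaches its receptor. The receptor acts through the kinases Jak1 and Jak2. Promoters of responding genes often hold GAS sites and interferon-stimulated response elements (ISRE), and the factor Irf1 binds the ISRE. The proteins gather on membranes around intracellular bacteria and parasites, a role known mainly from mouse and human cells. In blood, monocytes, neutrophils and lymphocytes can all make them.

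The RefSeq promoter windows of the 4 genes are shown because the genes are known targets of factors that bind GAS and ISRE sites. Each window runs from 250 bases before to 50 bases after the annotated start in the GRCr8 assembly, 5′ to 3′ on the strand of the gene. All 4 genes had an entry. Capitals mark matches to an ISRE-type motif (GAAANNGAAA) or a GAS-type motif (TTCNNNGAA), searched on both strands, with N for any base.
Gbp2, chr2:234005477-234005776, plus strand: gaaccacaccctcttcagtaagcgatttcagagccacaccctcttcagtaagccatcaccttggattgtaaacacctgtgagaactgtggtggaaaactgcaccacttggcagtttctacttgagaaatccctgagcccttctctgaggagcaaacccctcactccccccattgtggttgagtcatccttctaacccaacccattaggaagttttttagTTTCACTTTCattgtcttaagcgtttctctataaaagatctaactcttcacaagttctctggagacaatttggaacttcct
Gbp5, chr2:233910749-233911048, plus strand: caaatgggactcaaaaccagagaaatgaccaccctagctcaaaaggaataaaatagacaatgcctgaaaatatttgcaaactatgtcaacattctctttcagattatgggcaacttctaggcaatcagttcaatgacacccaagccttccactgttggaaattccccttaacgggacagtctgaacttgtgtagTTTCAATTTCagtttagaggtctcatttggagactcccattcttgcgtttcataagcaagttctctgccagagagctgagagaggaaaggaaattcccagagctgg
Igtp, chr10:42874797-42875096, plus strand: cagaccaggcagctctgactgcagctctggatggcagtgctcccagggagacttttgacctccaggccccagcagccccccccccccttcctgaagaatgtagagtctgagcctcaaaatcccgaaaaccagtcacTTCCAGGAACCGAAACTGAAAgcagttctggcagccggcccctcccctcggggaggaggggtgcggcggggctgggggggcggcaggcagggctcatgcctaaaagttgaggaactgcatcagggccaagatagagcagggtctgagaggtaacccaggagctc
Irgm, chr10:33742529-33742828, minus strand: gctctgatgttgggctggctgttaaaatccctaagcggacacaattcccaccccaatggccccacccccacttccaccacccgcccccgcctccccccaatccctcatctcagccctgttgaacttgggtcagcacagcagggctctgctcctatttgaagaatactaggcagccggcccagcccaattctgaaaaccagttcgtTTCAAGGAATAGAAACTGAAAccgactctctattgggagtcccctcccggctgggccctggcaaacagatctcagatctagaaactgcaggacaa

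All 4 windows held 1 ISRE-type match, and those of Igtp and Irgm also held 1 GAS-type match. The Gbp2 match, TTTCACTTTC, read on the opposite strand, lay 31 to 22 bases before the start, and the Gbp5 match, TTTCAATTTC, likewise on the opposite strand, lay 56 to 47 bases before it. In the Igtp window the GAS-type match was followed after 2 bases by the ISRE-type match, in the run TTCCAGGAACCGAAACTGAAA, 114 to 94 bases before the start. Irgm had the same arrangement in TTCAAGGAATAGAAACTGAAA, 45 to 25 bases before the start. In no window of the 4 did the GAS-type and ISRE-type matches overlap each other.

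Of 33469 RefSeq promoter windows of that length, 1312 (3.92%) held the ISRE-type motif and 2970 (8.87%) held the GAS-type motif. The spaced pair of both, TTCNNNGAANNGAAANNGAAA on either strand, was defined after the Igtp and Irgm sequences had been read. It stood in 7 windows (0.0209%): Igtp, Irgm, Irgm2, Ifgga2l2, Parp14, Stra8 and LOC134480693. Irgm2, which follows Igtp on chromosome 10, and Ifgga2l2 belong to the same GTPase families. Among 17 windows of related GTPases, 6 held the ISRE-type motif and 6 the GAS-type motif. A match is a description of the letters; binding was not measured.

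**Figure D1:**
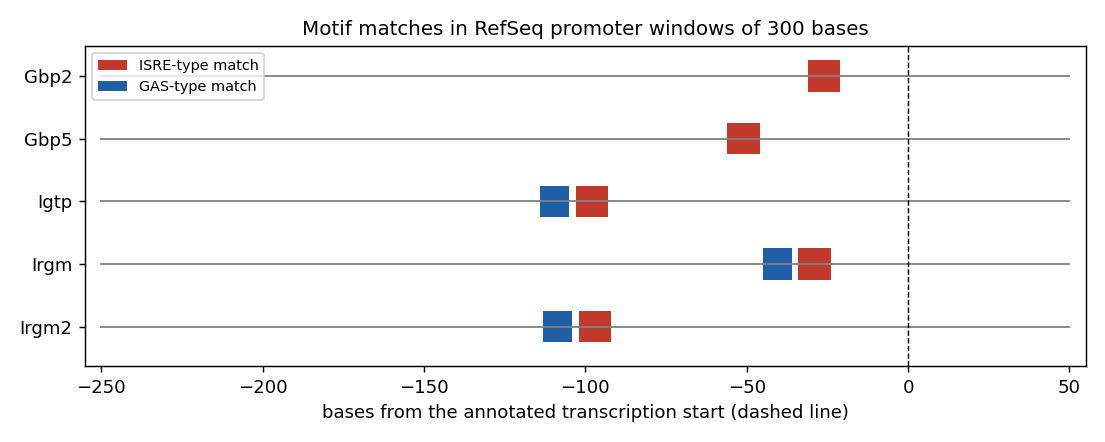
Places of the motif matches in the promoter windows of Gbp2, Gbp5, Igtp, Irgm and the unmeasured Irgm2, with bases from the annotated start on the x axis. Red blocks are ISRE-type and blue blocks GAS-type matches; the pair stands side by side in Igtp, Irgm and Irgm2, farther from the start in Igtp (114 to 94 bases) than in Irgm (45 to 25 bases).

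Among the probes that represent the 4 genes, Gbp2 had in the ratio the largest difference between procainamide and control arrays in BN blood. In Cy5 over the array median its difference was 0.97, below 1.57 for Irgm and 1.23 for Gbp5. A gene with several probes was represented by the one of highest mean intensity. The log2 ratios of Gbp2 were 1.24, 2.12, 1.57 and 1.55 on the BN procainamide arrays, against -0.09, -0.17, -0.28 and -0.46 on the BN control arrays. In SD blood they were 0.88, 1.32, 1.30, 0.61 and 0.72 on the procainamide arrays, against -0.16, -0.42, 0.17, -0.07 and 0.02 on the control arrays. Every procainamide array lay above every control array of its strain, and in SD blood the treated arrays fell into a higher pair near 1.3 and a lower set of 3. The mean difference was 1.87 ± 0.19 (log2, SE), or 3.65-fold, in BN blood and 1.06 ± 0.17, or 2.08-fold, in SD blood. Gbp2 encodes a guanylate-binding protein that, in mouse cells, coats vacuoles holding parasites.

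Gbp5, whose protein is known from mouse and human cells to help the Nlrp3 inflammasome assemble, was higher on treated arrays at both of its probes. The brighter probe had log2 ratios of 0.85, 1.89, 1.30 and 1.30 on the BN procainamide arrays, against -0.11, -0.06, -0.40 and -0.23 on the BN control arrays. On SD arrays it had 0.62, 1.00, 1.15, 0.53 and 0.86 with procainamide, against -0.13, -0.19, 0.11, -0.13 and -0.12 in controls. The groups did not overlap in either strain, and the treated BN arrays spread more widely, with a standard deviation of 0.43 against 0.15 in BN controls. The differences were 1.54 ± 0.17 in BN blood (2.90-fold) and 0.92 ± 0.15 in SD blood (1.90-fold).

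The dimmer Gbp5 probe read 0.41, 1.74, 1.03 and 1.02 on the BN procainamide arrays, against 0.16, -0.14, -0.54 and -0.45 on the BN control arrays. It read 0.28, 0.61, 0.92, 0.67 and 0.92 on the SD procainamide arrays, against -0.46, -0.51, -0.33, -0.88 and -0.42 on the SD control arrays. Its groups did not overlap either, although the lowest treated BN array cleared the highest control by only 0.26. Its differences were 1.30 ± 0.22 in BN blood and 1.20 ± 0.20 in SD blood, so that the strains were closer together here than at the brighter probe.

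Igtp, an immunity-related GTPase of the endoplasmic reticulum whose mouse form is also called Irgm3, gave different sizes at its 2 probes. The probe that was brighter on average over both dyes had log2 ratios of 1.04, 1.22, 0.95 and 1.01 on the BN procainamide arrays, against 0.10, 0.27, 0.23 and 0.10 on the BN control arrays. On SD arrays it had 0.43, 0.35, 0.80, 0.49 and 0.62 with procainamide, against -0.03, 0.02, 0.02, 0.09 and 0.42 in controls. In SD blood these groups overlapped, since control replicate 5 lay above treated replicate 2. The differences were 0.88 ± 0.11 in BN blood (1.84-fold) and 0.43 ± 0.10 in SD blood (1.35-fold).

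The other Igtp probe had 1.64, 2.13, 1.69 and 1.56 on the BN procainamide arrays, against 0.25, -0.09, -0.37 and -0.44 on the BN control arrays. It had 0.94, 1.14, 1.32, 1.14 and 1.16 on the SD procainamide arrays, against -0.27, -0.25, 0.15, -0.15 and -0.03 on the SD control arrays. Here the groups stood clearly apart in both strains, by 1.31 in BN blood and 0.79 in SD blood between the nearest arrays. The differences were 1.92 ± 0.15 (3.78-fold) in BN blood and 1.25 ± 0.13 (2.38-fold) in SD blood. In GRCr8 the gene Igtpl1 lies next to Igtp on chromosome 10, and whether either probe also reads it was not tested.

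Irgm, which in mouse keeps other immunity-related GTPases inactive on the membranes of the cell itself, separated treated from control arrays in both strains. Its log2 ratios were 1.03, 1.73, 1.52 and 1.12 on the BN procainamide arrays, against 0.39, 0.02, -0.24 and -0.31 on the BN control arrays. On SD arrays they were 0.78, 1.04, 0.97, 1.02 and 1.06 with procainamide, against -0.39, -0.40, 0.18, -0.16 and -0.11 in controls. No treated array overlapped a control array of its strain, and the treated SD arrays were the tightest of the groups, with a standard deviation of 0.11. The differences were 1.38 ± 0.17 in BN blood (2.61-fold) and 1.15 ± 0.15 in SD blood (2.21-fold).

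**Figure D2:**
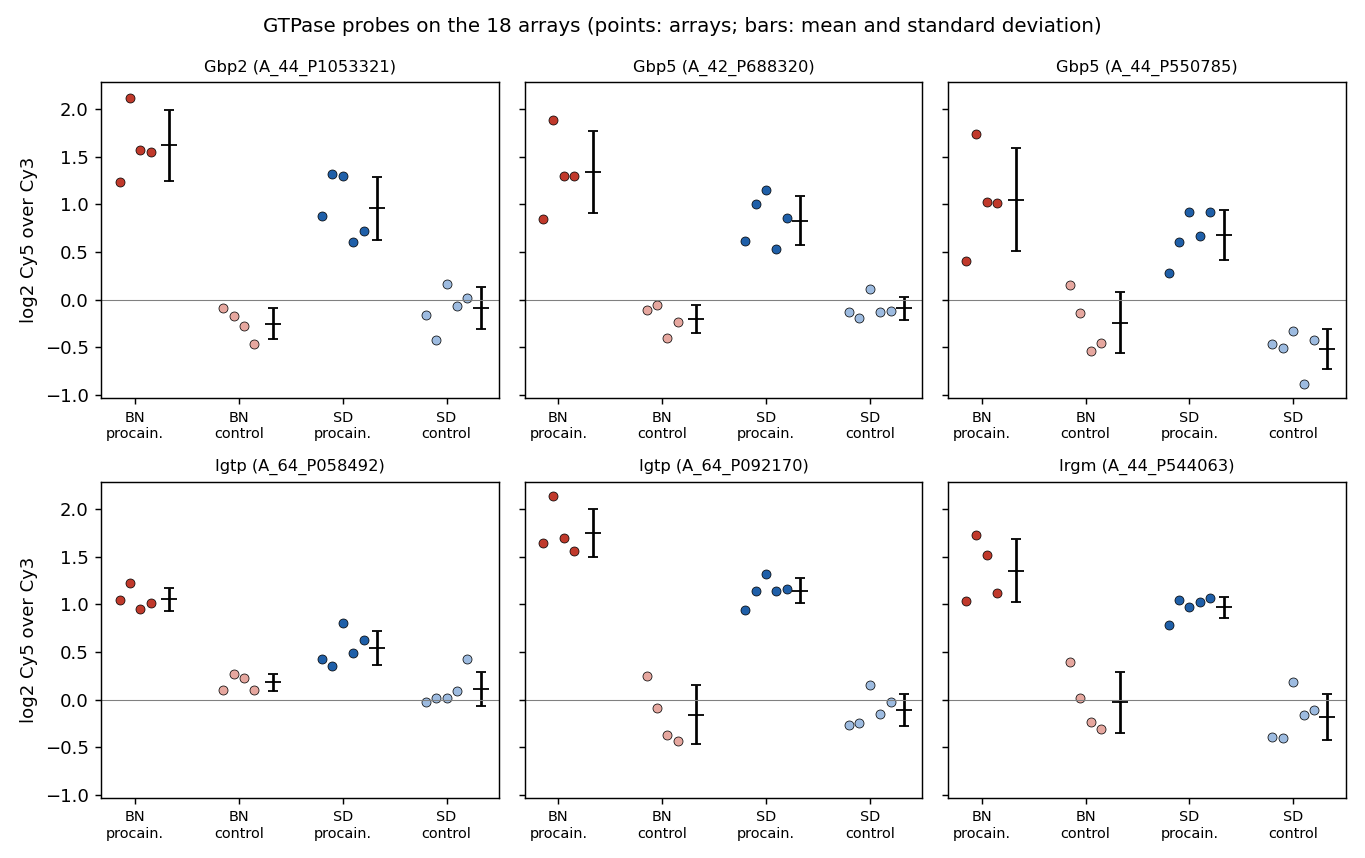
Log2 ratio of Cy5 over Cy3 for the 6 probes of Gbp2, Gbp5, Igtp and Irgm; each point is 1 array of the group on the x axis, and the bars beside the points are mean and standard deviation. Procainamide arrays lie above the control arrays of their strain in every panel except the brighter Igtp probe in SD rats, where control replicate 5 at 0.42 lies among the treated arrays.

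By the probe that represents each gene, all 4 genes had every BN procainamide array above every BN control array, as had 8.18% of the 13652 named genes. In SD blood 3 of the 4 did, as had 4.37% of named genes, and 1.17% of named genes did so in both strains. The genes were picked knowing these values, so no test was made of their responses. Ranked by the size of the rise among 13652 named genes, Gbp2 was number 19 in BN and 25 in SD blood, and Gbp5 number 27 and 32. Irgm was number 44 in BN and 20 in SD blood, and Igtp number 154 and 384. The dimmer Igtp probe, with 1.92 in BN and 1.25 in SD blood, was not ranked. The median of all named genes was -0.02 in BN and -0.01 in SD blood. In whole blood, more cells of a type and more RNA per cell cannot be told apart.

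In the ratios the BN response was larger than the SD response at all 6 probes. The difference between the responses was 0.81 ± 0.25 for Gbp2 (log2, SE), 0.61 ± 0.23 and 0.10 ± 0.30 for the brighter and dimmer Gbp5 probes, 0.45 ± 0.15 and 0.67 ± 0.20 for the brighter and dimmer Igtp probes, and 0.24 ± 0.23 for Irgm. These values too were in view when the genes were picked and have no test; of all named genes, 10.7% passed one for this difference. For Irgm and the dimmer Gbp5 probe the difference was about as large as its SE or smaller.

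Some arrays were high at most of the probes. BN procainamide replicate 2 was the highest of its group at 6 of 6 probes, and replicate 1 was the lowest at 4. Without replicate 2 the BN differences were 1.70 for Gbp2, 1.35 and 1.07 for Gbp5, 0.82 and 1.80 for Igtp, and 1.26 for Irgm. SD procainamide replicate 3 was the highest of its group at 4 probes, and SD control replicate 3 was the highest at 5. The labels give the array of control replicate 1 the same RNA in both dyes. Its log2 ratios at the 6 probes ran from -0.11 to 0.39 in BN and from -0.46 to -0.03 in SD. On the same BN array Oas2, described below, stood at 1.66, so not every ratio on it was near 0. Over all probes its ratios had a standard deviation of 0.387, against 0.317, 0.409 and 0.433 on the other BN control arrays. On SD control replicate 1 it was 0.244, against 0.200, 0.275, 0.249 and 0.262 on the other SD control arrays. In each strain control replicate 2, not replicate 1, thus had the narrowest ratios. Whether the label of the RNA in the reference dye holds was not tested.

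The arrays came from 3 slides scanned on 2 days, which follow the groups in part. The 4 BN procainamide arrays were the only ones of the 18 on their slide. Of the 18, the 4 BN control arrays shared another slide only with 2 SD procainamide arrays, scanned on another day. Slide and treatment cannot be told apart in BN rats. With scan day as a term, which the SD arrays supply, the BN difference of Gbp2 was 1.36 ± 0.27, and those of Gbp5 and Igtp by their brighter probes and of Irgm were 1.31 ± 0.28, 0.91 ± 0.19 and 1.49 ± 0.28.

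In SD rats 3 procainamide arrays shared a slide with all 5 control arrays. Within that slide the SD differences were 1.26 for Gbp2, 1.01 and 1.12 for the Gbp5 probes, 0.42 and 1.24 for the Igtp probes, and 1.10 for Irgm. The 2 SD procainamide arrays of the other slide lay above the same controls by 0.75 for Gbp2, 0.79 and 1.31 for Gbp5, 0.45 and 1.26 for Igtp, and 1.21 for Irgm. On average the treated arrays of both slides were thus above the controls, and for Gbp2 those of the second slide stood closer to them. At the brighter Igtp probe treated and control arrays overlapped within the shared slide.

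A ratio rises when Cy5 is higher or Cy3 is lower, so the dyes were also read apart, each as log2 of the spot signal over the median of its array. In Cy5, the sample dye, procainamide arrays lay wholly above control arrays at 6 of 6 probes in each strain, as did 15.2% of named genes in BN and 6.4% in SD blood. The Cy5 differences in BN blood were 0.97 for Gbp2, 1.23 and 1.49 for Gbp5, 0.54 and 1.81 for Igtp, and 1.57 for Irgm. In SD blood they were 0.77 for Gbp2, 0.88 and 1.00 for Gbp5, 0.72 and 0.98 for Igtp, and 1.07 for Irgm. By this reading the dimmer Igtp probe and Irgm had the largest BN differences, that of Gbp2 was smaller than in the ratio, and the brighter Igtp probe differed more in SD than in BN blood.

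The Cy3 signal of these probes was not level, although by the labels it was the same RNA on all arrays of a strain. Gbp2 in Cy3 was lower by 0.96 on BN procainamide arrays (2.70 to 3.62 over the array median) than on BN control arrays (4.02 to 4.34). It differed by -0.52 between SD procainamide arrays (2.87 to 3.59) and SD control arrays (3.49 to 3.99), which overlapped. In BN rats the Cy3 of 4 probes, those of Gbp2 and Igtp and the brighter Gbp5 probe, lay wholly below the controls, as did that of 22.6% of named genes. In SD rats this held for 2 probes, Irgm and the dimmer Igtp probe, against 2.89% of named genes. The median Cy3 difference of all named genes was -0.02 in each strain. Among genes whose ratio was wholly above the controls, 30.1% in BN and 14.9% in SD blood had Cy3 wholly below them, with a median difference of -0.09. The part of Cy3 in the ratios was not tested, and no spot on any array was saturated.

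**Figure D3:**
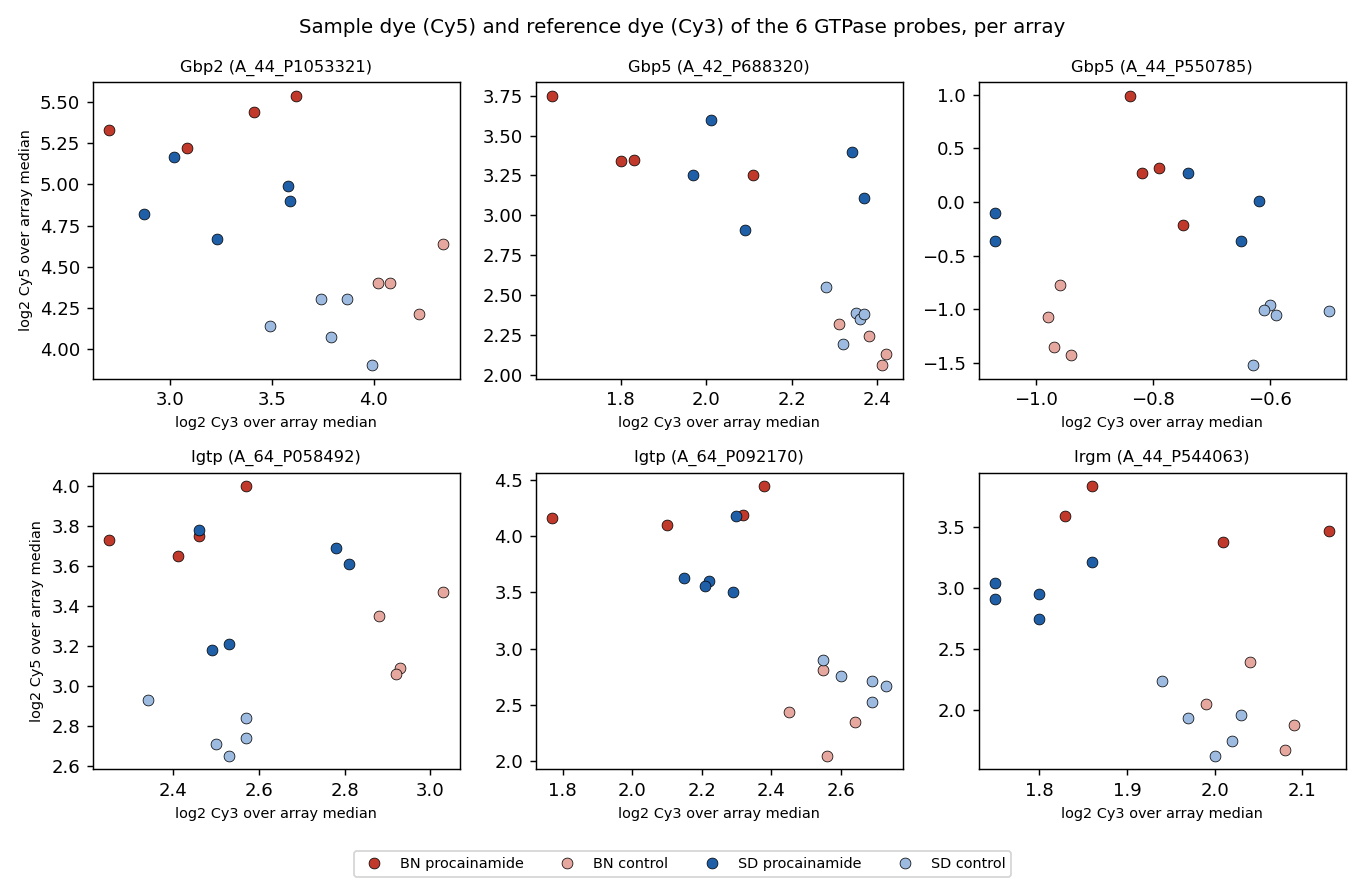
Each point is 1 array, with log2 Cy3 (the reference dye) over the array median on the x axis and log2 Cy5 (the sample dye) over the array median on the y axis, for the 6 probes. Procainamide arrays lie above the controls of their strain along the Cy5 axis in all panels, and for Gbp2 the BN procainamide arrays also lie to the left, at 2.70 to 3.62 in Cy3 against 4.02 to 4.34 in BN controls.

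The control rats of the 2 strains were compared in Cy5 alone after normalization between arrays, a comparison that did not enter the choice of genes. Gbp2 was at the same level, 14.94 ± 0.11 in BN controls and 14.94 ± 0.12 in SD controls (log2 Cy5, standard deviation, n = 4 and 5, limma adjusted p = 0.997). Gbp5 differed by -0.13 ± 0.13 (SE, BN minus SD, limma adjusted p = 0.436) at the brighter and by -0.11 ± 0.20 (limma adjusted p = 0.705) at the dimmer probe. Irgm differed by 0.15 ± 0.15 (limma adjusted p = 0.429). None of these passed the threshold of 0.05, which does not show that the strains were alike.

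The brighter Igtp probe passed it: 14.08 ± 0.11 in BN controls and 13.65 ± 0.10 in SD controls (standard deviation), a difference of 0.43 ± 0.09 (SE), or 1.35-fold (limma adjusted p = 0.00203), with no overlap. The dimmer Igtp probe had the opposite sign, 13.34 ± 0.31 in BN controls and 13.58 ± 0.14 in SD controls, and did not pass (-0.25 ± 0.13, limma adjusted p = 0.131). Of all 26496 probes tested, 38.5% passed in this comparison, 21.6% higher and 16.9% lower in BN controls, so 1 of 6 is below the share of all probes. BN and SD controls lay on different slides and scan days. The Igtp call was lost with scan day as a term (0.21, limma adjusted p = 0.573) and for the mean of both probes (0.09, limma adjusted p = 0.438).

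On the same scale each probe can be ordered over the 4 groups. For Gbp2 the order was BN procainamide (16.04 ± 0.13, standard deviation here and below), SD procainamide (15.48 ± 0.12) and then the controls, and the treated groups did not overlap. Irgm ran from BN procainamide (14.33 ± 0.26) over SD procainamide (13.77 ± 0.11) to BN controls (12.96 ± 0.30) and SD controls (12.81 ± 0.23), with overlap only between the controls. Gbp5 at its brighter probe had 14.20 ± 0.29 in BN procainamide and 14.02 ± 0.20 in SD procainamide, which overlapped, as did the controls at 13.13 ± 0.14 in BN and 13.26 ± 0.13 in SD. The brighter Igtp probe had 14.52 ± 0.07 in BN procainamide and 14.22 ± 0.20 in SD procainamide, which missed each other by 0.03, and BN controls at 14.08 ± 0.11 overlapped the treated SD rats. At the dimmer probes the order of the treated strains was again BN above SD, by 0.51 ± 0.13 for Igtp and 0.44 ± 0.20 for Gbp5. The treated levels share their arrays with the responses and were not tested.

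Among the other GTPases of these families and their relatives, 9 of 23 listed genes had a tested probe. In BN blood 3 rose and in SD blood 2, and none fell in the limma fit, nor was any lower at an unadjusted p under 0.05. At an adjusted p under 0.05, 8.97% of all named genes rose and 13.8% fell in BN blood, and 1.43% rose and 1.75% fell in SD blood. The list's median was 0.14 in BN and 0.13 in SD blood, beside -0.02 and -0.01 for all named genes. Ifgga2l1, an immunity-related GTPase, had log2 ratios of 0.67, 1.19, 1.06 and 1.19 on BN procainamide arrays, against 0.18, -0.26, -0.34 and -0.52 on BN control arrays. It rose 2.40-fold in BN (1.26 ± 0.17, limma adjusted p = 0.000135) and 2.10-fold in SD blood (1.07 ± 0.15, limma adjusted p = 0.00183).

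RGD1309362, which RefSeq gives the older symbol Ifgga1, rose 2.39-fold in BN (limma adjusted p = 0.000226) and 1.86-fold in SD blood (limma adjusted p = 0.00741). Ifi47, another immunity-related GTPase, had 0.43, 2.03, 1.60 and 1.30 on BN procainamide arrays, against 0.49, -0.05, -0.78 and -0.32 on BN control arrays. It rose 2.83-fold in BN blood (1.50 ± 0.31, limma adjusted p = 0.00241) although treated replicate 1 lay below control replicate 1, and it did not pass in SD blood (0.81 ± 0.27, limma adjusted p = 0.124). The dynamin-like antiviral GTPases Mx1 and Mx2 had 0.14 and 0.00 in BN blood and 0.40 and -0.18 in SD blood, and neither passed the test. The atlastins Atl1, Atl2 and Atl3, structural relatives of guanylate-binding proteins that shape the endoplasmic reticulum, did not pass in either strain, nor did Irgq. In normalized Cy5 alone and in Cy5 over the array median Atl2 was called lower in BN blood, as were 16.6% and 20.6% of named genes. In the latter Irgq was called higher in BN blood, as were 19.1%. In GRCr8 Gbp5, Gbp7, Gbp4, Gbp2, Gbp1 and Gbp3 follow each other on chromosome 2, and the other 4 of these, like Irgm2, had no matched probe.

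The route by which interferon gamma reaches these genes was represented by 16 of 16 listed genes. In BN blood 6 rose and in SD blood 4, and none fell in the limma fit. At an unadjusted p under 0.05, 9 were higher and 1 lower in BN blood, and 7 higher and 1 lower in SD blood. The median was 0.38 in BN and 0.18 in SD blood. Ifng, the cytokine itself, had log2 ratios of 1.95, 3.76, 4.19 and 2.36 on BN procainamide arrays, against -0.08, -0.38, -0.34 and -0.65 on BN control arrays. In SD blood it had 1.72, 3.15, 1.40, 1.77 and 1.71 on treated arrays, against -0.33, -0.82, 0.20, -0.54 and 0.40 on control arrays. The groups did not overlap in either strain, and the rises were 10.8-fold in BN (limma adjusted p = 7.22e-05) and 4.49-fold in SD blood (limma adjusted p = 0.00711).

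The receptor chains did not pass in the main fit: Ifngr1 had -0.23 in BN (limma adjusted p = 0.134) and -0.34 in SD blood (limma adjusted p = 0.06), and Ifngr2 had 0.17 and 0.09. Ifngr1 was called lower in SD blood with the authors' deposited ratios (1.41% of named genes fell), the scanner's ratios (1.05%) and normalized Cy5 alone (2.17%). So it was for the mean of all probes of a gene. Ifngr2 was called higher in BN blood in both readings of Cy5 without Cy3. Irf1, the factor that binds ISRE-type sites, rose 2.77-fold in BN (1.47 ± 0.13, limma adjusted p = 1.45e-06) and 1.85-fold in SD blood (0.89 ± 0.11, limma adjusted p = 0.000926).

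Irf2, a factor that competes with Irf1, rose 1.45-fold in BN (limma adjusted p = 0.00275) and 1.30-fold in SD blood (limma adjusted p = 0.0487). Irf8 (0.54 ± 0.16, limma adjusted p = 0.0211) and Stat2 (0.46 ± 0.12, limma adjusted p = 0.00871) rose in BN blood and did not pass in SD blood (limma adjusted p = 0.317 and 0.107). The Irf2 call in SD blood was lost in both readings of Cy5 without Cy3, and the Stat2 call in BN blood in that over the array median. Socs1, a brake on the receptor, had 0.87 ± 0.30 in BN and 0.66 ± 0.27 in SD blood and did not pass in either (limma adjusted p = 0.0506 and 0.222). The kinases Jak1 and Jak2 did not pass either. In both readings of Cy5 without Cy3, Socs1 and Jak2 were called higher in BN blood, and Jak1 in that over the array median. In these readings 20.1% (normalized) and 19.1% (array median) of named genes rose. Socs1 was also called higher in BN blood with the authors' deposited ratios and the scanner's ratios.

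Of 24 genes listed as working beside the GTPases, in inflammasomes, galectin binding and the autophagy machinery, 23 were measured. In BN blood 4 rose and 1 fell, and in SD blood 1 rose and 2 fell, with medians of 0.06 and -0.05. Of all named genes, 8.97% rose and 13.8% fell in BN and 1.43% rose and 1.75% fell in SD blood. Apol3l1, a relative of the human apolipoprotein APOL3 that permeabilises bacteria alongside guanylate-binding proteins, rose 1.81-fold in BN (limma adjusted p = 0.000103) and 1.51-fold in SD blood (limma adjusted p = 0.00487). The inflammatory caspases Casp1 (1.57-fold, limma adjusted p = 0.00153) and Casp4 (1.35-fold, limma adjusted p = 0.0109) rose in BN blood, as did Lgals3, a galectin that marks broken vacuoles (2.06-fold, limma adjusted p = 0.00723). Atg7, an enzyme that activates ubiquitin-like proteins in autophagy, fell by 0.34 in BN blood (limma adjusted p = 0.0439). In SD blood Map1lc3a fell by 0.48 (limma adjusted p = 0.00333) and Gabarapl2 fell by 0.46 (limma adjusted p = 0.022), both of which encode proteins attached to autophagosome membranes. In both readings of Cy5 without Cy3 the BN calls of Casp1, Lgals3 and Atg7 and the SD call of Gabarapl2 were lost. Over the array median, though not after normalization between arrays, so were the BN call of Apol3l1 and the SD call of Map1lc3a.

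Of 22 listed genes known chiefly from the response to type I interferon, 18 were measured. In BN blood 1 rose and 1 fell, with a median of 0.00, and in SD blood 3 rose and none fell, with a median of 0.37. Beside the 8.97% and 13.8% of all named genes that rose and fell in BN blood, 1 of 18 is the smaller share, and in SD blood 1.43% of named genes rose. At an unadjusted p under 0.05 in limma, 3 of the 18 were higher and 2 lower in BN blood. In SD blood 8 were higher and 1 lower at that p, for which no share of all named genes was taken. Oasl2, an antiviral protein of the oligoadenylate synthetase family, rose 1.68-fold in BN (limma adjusted p = 0.00705) and 1.88-fold in SD blood (limma adjusted p = 0.00678). In SD blood Dhx58, a regulator of viral RNA sensing, rose 1.78-fold (limma adjusted p = 0.0135) and Bst2, which tethers budding viruses, rose 1.66-fold (limma adjusted p = 0.0375). Oas2 fell by 2.33 in BN blood (limma adjusted p = 8.4e-05). Its log2 ratios were 0.17, -0.80, -0.47 and -0.80 on BN procainamide arrays, against 1.66, 1.18, 2.05 and 2.54 on BN control arrays, where control replicate 1 was by the labels set against itself.

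**Figure D4:**
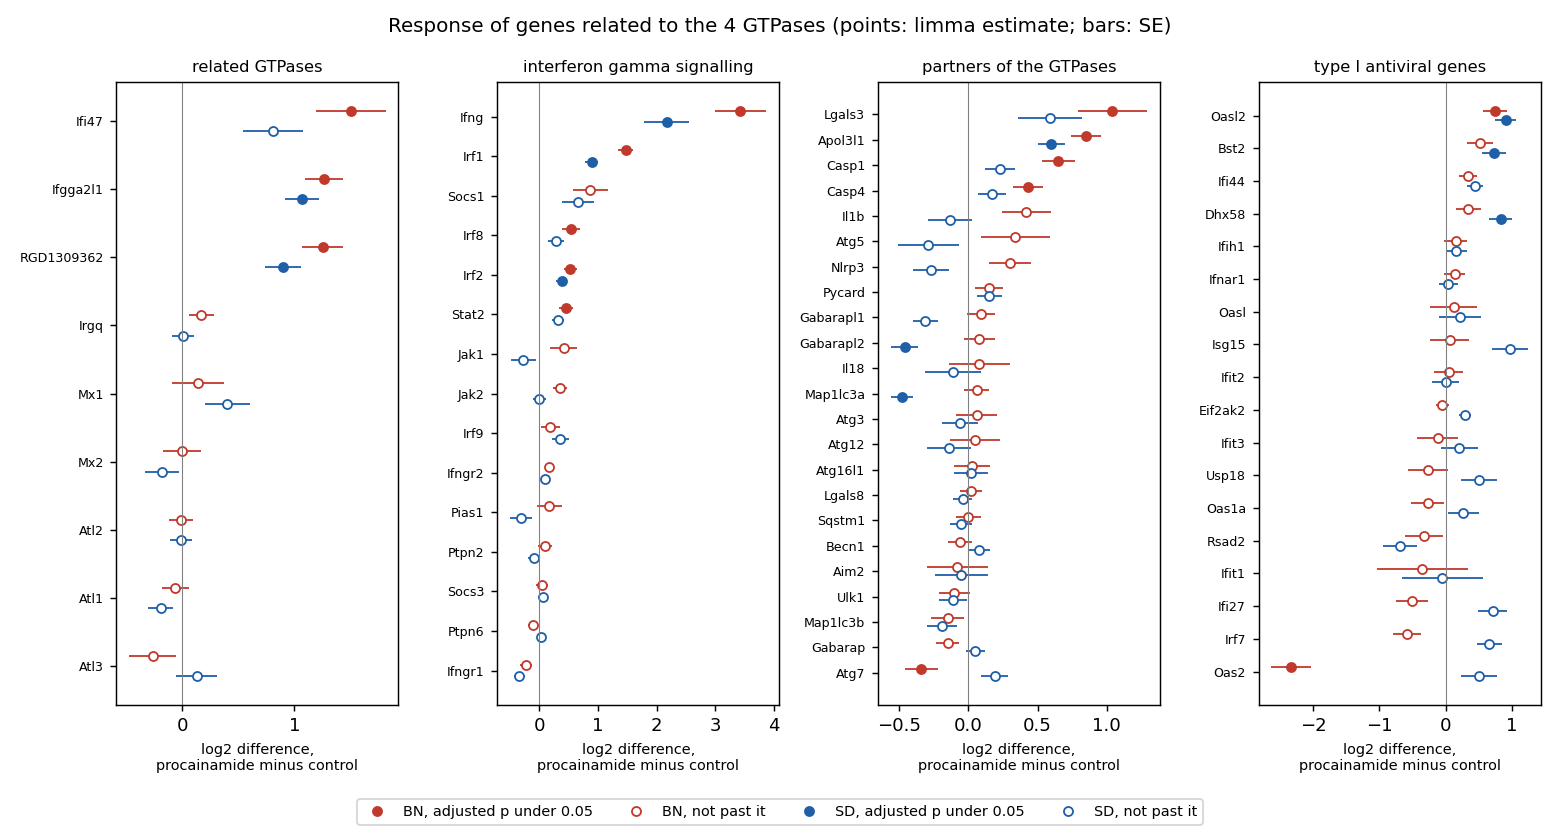
Log2 difference between procainamide and control arrays for the measured genes of the 4 lists, with BN in red and SD in blue. Points are the fitted differences, filled where the adjusted p is under 0.05, and bars are SE; 1 gene that is counted is not drawn, Ifng stands farthest to the right of its list, and Oas2 stands at -2.33 in BN rats.

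Over the 4 lists together, 14 of 66 genes rose and 2 fell in BN blood, and 10 rose and 2 fell in SD blood, where of all named genes 8.97% rose and 13.8% fell in BN and 1.43% rose and 1.75% fell in SD. With scan day as a term the count that rose in BN was 2, with Irf1 among them, and 0.461% of named genes rose. With the brightness of the array as a term it was 6 (1.11% of named genes), with Apol3l1, Ifgga2l1, Ifng, Irf1 and RGD1309362 among them. Among the SD arrays of 1 slide the count that rose was 6 (0.476% of named genes), and these were the same 6 genes. Read in Cy5 over its array median, 19 rose and 6 fell in BN blood, where 19.1% of named genes rose and 20.6% fell, and 13 rose and none fell in SD blood, where 1.71% rose and 1.08% fell. These are not all the same genes: the BN calls of Apol3l1, Stat2, Casp1, Lgals3 and Atg7 and the SD calls of Irf2, Map1lc3a and Gabarapl2 were lost in this reading. Other genes were gained in it, Socs1, Jak1 and Jak2 in BN blood among them. Some calls hung on single arrays. Leaving out 1 array of the strain in turn, Atg7 was lost in 7 of 8 fits and Irf8 in 4 of 8. In SD blood Irf2 was lost in 9 of 10 fits, Bst2 in 7, Gabarapl2 in 5, and Dhx58 in 1, the fit without control replicate 2. The other calls held in all these fits.

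Markers of the cells that blood from the eye can hold moved with the BN groups in part. Of all named genes, 8.97% rose and 13.8% fell in BN blood, and 1.43% rose and 1.75% fell in SD blood. In BN blood 1 of 4 monocyte markers rose, and the log2 of their summed Cy5 was 17.10 to 17.78 on procainamide arrays and 16.92 to 17.26 on control arrays. The marker that rose was Lyz2 (1.29 ± 0.24), the brightest of the 4 on average, so the sum follows it most. Cd14 had 0.37, Csf1r 0.07 and Cd68 -0.21, and none of these passed. Of the markers measured, 3 of 4 for eosinophils fell (12.63 to 14.61 on procainamide arrays, 14.10 to 15.68 on control arrays), as did 2 of 3 for platelets (15.13 to 15.71, against 15.47 to 16.10). Of the endothelial markers 3 of 4 fell (15.80 to 16.01 on procainamide arrays, 16.10 to 16.21 on control arrays), and of epithelial and gland markers 1 of 4 (11.86 to 13.10, against 13.50 to 13.65). The epithelial and gland marker that fell was Klk1 (-2.86 ± 0.20), the brightest of the 4 on average, so the sum does not weigh the 4 alike. Epcam had -0.38, Krt18 -0.20 and Krt8 -0.29, and none of these passed. In the limma fit none of the markers of T, B, NK, erythroid cells or neutrophils passed in BN blood; at an unadjusted p under 0.05 there were 2 higher for neutrophils and 1 lower for NK cells. In SD blood 1 of 4 endothelial markers fell (15.99 to 16.20 on procainamide arrays, 16.21 to 16.36 on control arrays), as did 1 of 4 epithelial and gland markers (12.90 to 13.18, against 13.21 to 13.66). The latter was again Klk1 (-0.71 ± 0.18), and Epcam (-0.13), Krt18 (-0.27) and Krt8 (-0.02) did not pass. No marker of the other lists passed in SD blood in the limma fit; at an unadjusted p under 0.05 there were 1 higher for T cells, 2 lower each for NK and erythroid cells, and 1 lower each for eosinophils and platelets. All measured markers were well above background on all 18 arrays. Their part in the responses of the GTPases was not tested.

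Named genes whose log2 ratios over the 18 arrays ran most like those of each GTPase were found by Pearson's r, which is a description over arrays that share their references. For Gbp2 these were Acod1, which makes itaconate (r = 0.984), Psme2, a proteasome activator subunit (r = 0.976), and Ccl20, a chemokine (r = 0.975). Gbp5 had the same 3, with r of 0.982, 0.979 and 0.967. For Igtp they were Nkg7, a granule protein of cytotoxic cells (r = 0.933), Sod2, the mitochondrial superoxide dismutase (r = 0.933), and Txn1, thioredoxin (r = 0.931). Gbp5 and Igtp entered by their brighter probes only. The dimmer Igtp probe, with the larger response, was not compared. For Irgm they were Hk3, a hexokinase (r = 0.967), Irf1 (r = 0.965) and Apol3l1 (r = 0.962).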

How the data were processed

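Blood RNA was hybridised to 18 Agilent arrays with 2 dyes (design 028279, per the file headers). The deposited scanner files hold median spot and background intensities in each dye, processed intensities that were background-subtracted and dye-normalized, and log10 ratios of those, all made with Feature Extraction 10.7.1.1 per the file headers. A matrix of log2 ratios deposited by the authors covers 25602 probes, with scale, centring and direction unstated. Each of its columns had slope 1 against the scanner's log ratio, so it holds log2 of Cy5 over Cy3 with no gene centred. Its column medians were 0.0653, 0.0477, 0.0179 and 0.0368 for BN procainamide, -0.0140, 0.0135, 0.00266 and 0.000872 for BN control, 0.0282, 0.0367, 0.0575, 0.0180 and 0.0133 for SD procainamide, and 0.0210, 0.00510, 0.0173, 0.0121 and 0.0181 for SD control. How its probes were filtered is not given in the sources used here.

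From the median intensities, background was corrected with normexp (offset 50) and ratios were normalized by loess within arrays in limma 3.58.1 (R 4.3.3). Control spots had weight 0, spots marked as outliers or non-uniform were left out except where a probe had no other spot (0.0741% of values), and spots of a probe were averaged. Probes were named through RefSeq accessions; 18355 of 30367 had 1 symbol, and 26496 were tested, those well above background in Cy5 on 4 or more arrays. The model had a mean for each group over all 18 arrays, with eBayes and Benjamini-Hochberg adjustment over all tested probes and a threshold of 0.05 (2-sided). For strain comparisons log2 Cy5 was used, normalized by loess and Aquantile. The fit was checked on simulated data. Median Cy5 signals were 27.3 to 48.7 times the background; the number of arrays limits the precision. Beside the 4 GTPases, the genes named were up to 6 per list and strain called at the smallest p, and the 3 most alike in pattern to each GTPase; other list genes named were chosen after their values were seen. A gene of the lists is counted but not reported here. The genes and lists were chosen with earlier results of these data known. No label ties an array to a rat of its own, so the p-values cover only the spread among these samples, which may be technical. Replicate numbers did not pair the arrays: deviations of same-numbered arrays correlated between -0.523 and 0.129. Lewis rats, named in the series' design text, were not analysed here.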

Additional observations from a re-analysis of the deposited data

Results flagged for a closer look

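Among the log2 ratios of the 6 GTPase probes in 4 groups, 24 in all, 2 had an array set apart from the rest of its group by Dixon's 95% limit, where chance gives about 1 in 20. SD control replicate 3 stood at 0.11 for the brighter Gbp5 probe, where the other controls lay at -0.19 to -0.12. SD control replicate 5 stood at 0.42 for the brighter Igtp probe, where the other controls lay at -0.03 to 0.09.

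For 7 of the 66 genes of the related lists the BN response differed from the SD response in the interaction term of the limma fit, where 10.7% of all named genes did. Irf1 had a larger rise in BN blood (difference 0.58 ± 0.17, SE, limma adjusted p = 0.0385). The differences were 0.54 for Map1lc3a (limma adjusted p = 0.00676) and 0.53 for Gabarapl2 (limma adjusted p = 0.0294), which both fell in SD blood. They were -0.53 for Atg7 (limma adjusted p = 0.0349), -1.24 for Irf7 (limma adjusted p = 0.0107), -1.21 for Ifi27 (limma adjusted p = 0.0236) and -2.84 for Oas2 (limma adjusted p = 0.00133). Irf7, a factor of the type I interferon response, had -0.58 ± 0.21 in BN and 0.66 ± 0.19 in SD blood, and neither response passed alone. In normalized Cy5 alone neither passed. Read in Cy5 over the array median, an alternative chosen after seeing the data, both passed, lower in BN and higher in SD blood. In that reading 20.6% of named genes fell in BN and 1.71% rose in SD blood.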

How the results depend on the processing

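The responses of the 4 GTPases, described without a test, kept their direction under all alternatives run, between 0.37 and 2.06 on the log2 scale. Gbp2 in BN blood was 1.36 with scan day as a term, 1.48 with array brightness as a term, 1.11 in normalized Cy5 alone and 0.97 in Cy5 over its array median (an alternative chosen after seeing the data), and in SD blood 0.54 and 0.77 in these last 2. Gbp5 in BN blood was 1.23 with brightness, 1.07 in Cy5 alone and 1.23 over the array median. Igtp was 1.40 in BN and 0.84 in SD blood for the mean of its probes, 0.44 and 0.54 in BN blood in Cy5 alone and over the array median, and 0.72 in SD blood over the array median. Without single arrays, the BN responses were 1.70 to 1.99 for Gbp2, 1.35 to 1.70 for Gbp5, 0.82 to 0.91 for Igtp and 1.26 to 1.53 for Irgm, and the SD responses 0.97 to 1.14, 0.84 to 1.00, 0.37 to 0.51 and 1.09 to 1.24. The replicate number as a block left the Gbp2 response at 1.87 in BN and 1.06 in SD blood.

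The BN minus SD control difference of Gbp2, near 0, turned to -0.04 in processed Cy5 and ran from -0.04 to 0.06 without single arrays. That of the dimmer Gbp5 probe turned to 0.10 with scan day, 0.25 with brightness and 0.02 in processed Cy5. That of the brighter Igtp probe was no longer past the threshold with scan day (0.21), brightness (0.30) or the mean of both probes (0.09); without single arrays it was 0.40 to 0.47. The dimmer Igtp probe passed without BN control replicate 1 (-0.39, limma adjusted p = 0.0108), and its adjusted p was 0.129 to 0.904 under the other kinds of alternative.

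In the main fit 14 list genes rose in BN blood (8.97% of named genes) and 10 in SD blood (1.43%). In BN blood the count was 2 with scan day (0.461%), 6 with brightness (1.11%) and 13 with the replicate block (4.95%). In SD blood it was 5 with the replicate block (0.308%) and 6 on 1 slide (0.476%, added after seeing the data). Without single arrays it was 13 to 18 in BN and 7 to 11 in SD blood. The counts that fell, 2 in each strain, ran from 0 to 6 in BN and 0 to 3 in SD blood. In BN blood the 0 came with scan day (0.381% of named genes fell) and the 6 in Cy5 over the array median (20.6%). The causes were not tested; fewer arrays entered the fit on 1 slide.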

Other observations

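Acod1 and Hk3, found by their likeness to the GTPases, had larger differences than the GTPases did. Acod1 differed by 4.89 in BN and 3.06 in SD blood (log2, procainamide minus control), and Hk3 by 4.12 and 3.20. Ccl20 differed by 2.62 and 1.41. They were found by their pattern over the same arrays, so they have no test here.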
